A study of Mus musculus with 24 samples.

Results

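The 37 genes described here encode lysosomal proteins other than cathepsins: soluble hydrolases and their activators, membrane proteins and transporters of the lysosome, the transcription factor TFEB and progranulin. They were taken by gene symbol from the array's annotation, and 36 of them were measured among the 22180 genes with a symbol of their own. Where a gene had more than 1 probe set (the group of probes that reports it), the probe set with the highest mean signal was used, which concerned 3 genes (Smpd1, Arsb and Npc1). Glb1 was not analysed here, because its probe set 17522736 is also annotated to Tmppe.

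The 24 arrays hold RNA of cortex taken from males at 18 days of age. They came from 4 strains, SV129, FVB, C57 (C57BL/6JOlaHsd) and C3H, and each strain gave 3 arrays of mice treated with CBE and 3 of mice given PBS as healthy controls. CBE (conduritol B-epoxide) irreversibly inhibits glucocerebrosidase, the lysosomal enzyme that is deficient in Gaucher disease, so the treated mice served as a chemical model of the neuronopathic form. It was given intraperitoneally at 25 mg per kg per day from day 8 to day 18. The labels name no mutation in any group, so the model rests on the inhibitor alone. The labels number the arrays of a group 1 to 3 and do not say whether mice were pooled, so p-values measure the spread between these arrays. Each array holds RNA from a 1 mm coronal slice with the cortex, so all cell types of the tissue are mixed. In such bulk RNA, more cells of a type and more RNA per cell cannot be told apart.

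Lysosomal hydrolases are made in the endoplasmic reticulum, most are sorted by mannose 6-phosphate tags, and each removes a particular group from the macromolecules delivered to the lysosome. Inherited loss of almost any of them gives a storage disease, and many such diseases affect the brain. TFEB and its relatives bind E-box sequences in the promoters of many lysosomal genes and can raise these genes as a set. Microglia, the resident phagocytes of the brain, are rich in lysosomes, and CD68 is a heavily glycosylated lysosomal membrane protein widely used as a marker of phagocytic microglia and macrophages.

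Of the 36 measured genes, 1 rose under CBE in the mean of the 4 strains at a limma adjusted p below 0.05: Cd68. None fell. Over all genes tested, 0.609% were called higher and 0.117% lower in the same contrast, so 1 of 36 is 2.78% against that background. Of the 36 members, 35 had a mean signal above that of the median gene. The shares of all genes given here and below were not matched to the members for signal. Grn and Man2b1 had smaller changes than Cd68, missed the threshold with all arrays and passed it when 1 array, C3H CBE replicate 1, was left out; 3 members were then called higher against a background of 0.699%. The other 33 members had mean log2 changes between -0.19 and 0.31, and none passed the threshold with or without that array.

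The array C3H CBE replicate 1 stood apart for these genes, and values without it are given where they differ clearly. Its signal was the highest of the 3 C3H CBE arrays for 25 of the 36 members, or 69.4%, where 32.3% of all genes were highest on it, and lowest for 3. Its median excess over the mean of the other two was 0.19 on the log2 scale for the members and -0.01 for all genes. For 10 members (Hexa, Gla, Gusb, Naglu, Man2b1, Lamp2, Npc2, Cd63, Cd68 and Grn) it was the highest of all 24 arrays. The share of all genes highest of 24 on it was not counted. The next array by this count, C57 PBS replicate 1, was highest for 5 members. Over all probe sets C3H CBE replicate 1 had a correlation of 0.990 with both other C3H CBE arrays, close to that between those arrays, 0.991.

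Cd68 (probe set 17264835) gave log2 signals of 6.25, 6.20 and 6.21 in SV129 PBS and 6.42, 6.45 and 6.12 in SV129 CBE. In FVB they were 5.96, 5.74 and 5.74 under PBS and 6.54, 6.61 and 6.55 under CBE. The C57 mice had 7.06, 7.02 and 7.33 under PBS and 7.74, 8.02 and 8.01 under CBE. In SV129 the groups overlapped, while in FVB and C57 every CBE array lay above every PBS array. C3H gave 6.24, 6.11 and 6.11 under PBS and 8.85, 6.82 and 6.89 under CBE, so all 3 CBE arrays were above the PBS arrays and replicate 1 was about 2 log2 units above the other CBE arrays. The mean change was 0.75 ± 0.15 (SE, n = 12 arrays per agent; limma adjusted p = 0.014), a 1.69-fold rise, and 11 of 12 CBE arrays lay above the PBS mean of their own strain. The share of all genes with 11 of 12 CBE arrays above was not counted, for this or later genes. Without C3H CBE replicate 1 the Cd68 change was 0.59 ± 0.05, or 1.50-fold (limma adjusted p = 2.9e-07).

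Within single strains, the Cd68 change was 1.36 in C3H, 0.78 in C57, 0.76 in FVB and 0.11 in SV129, each with an SE of 0.31 (3 against 3 arrays). None of these passed limma's adjusted threshold in the fit whose shared spread included the high C3H array. Without that array the SE fell to 0.10 in SV129, FVB and C57. Cd68 was then called in FVB (adjusted p = 0.00025), in C57 (7.9e-05) and, at 0.70 ± 0.11, in C3H (0.019). In SV129 the change without that array had a 95% interval of -0.09 to 0.32. The test of whether the 4 strains differed in their Cd68 change gave a limma adjusted p of 0.76 with all arrays and 0.11 without C3H CBE replicate 1, so a difference between strains was not called.

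Grn (probe set 17256959) encodes progranulin, a secreted and lysosomal protein that microglia make in quantity and whose loss causes a neuronal ceroid lipofuscinosis. Its log2 signals were 8.62, 8.32 and 8.47 in SV129 PBS against 8.47, 8.67 and 8.40 in SV129 CBE. In FVB they were 8.56, 8.54 and 8.39 against 8.75, 9.23 and 8.82, and in C57 9.20, 9.14 and 9.22 against 9.54, 9.89 and 9.84. In C3H they were 8.42, 8.40 and 8.53 under PBS and 9.93, 8.71 and 8.65 under CBE. The pattern matched Cd68 in that CBE lay above PBS without overlap in FVB, C57 and C3H and overlapped with it in SV129. The mean change was 0.42 ± 0.11 (limma adjusted p = 0.076) with all arrays and 0.32 ± 0.06 (0.0052) without C3H CBE replicate 1, and 11 of 12 CBE arrays lay above their PBS mean. By strain the Grn change was 0.04, 0.44, 0.57 and 0.65 in SV129, FVB, C57 and C3H, the last falling to 0.23 without the high array, when C57 alone was called (adjusted p = 0.014).

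Man2b1 (probe set 17503397) encodes the lysosomal alpha-mannosidase, which trims mannose from N-glycans of glycoproteins. Its log2 signals in SV129 were 6.51, 6.90 and 6.73 under PBS and 6.79, 6.83 and 6.78 under CBE. In FVB they were 6.40, 6.04 and 5.86 against 6.75, 7.04 and 6.79, and in C57 7.43, 7.48 and 7.45 against 7.50, 7.50 and 7.72. In C3H they were 6.37, 6.57 and 6.45 under PBS and 7.75, 6.66 and 6.75 under CBE. All 12 CBE arrays exceeded the PBS mean of their own strain, as they did for 0.546% of all genes, and the groups overlapped in SV129 alone. The mean change was 0.39 ± 0.09 (limma adjusted p = 0.062) and 0.30 ± 0.06 (0.010) without C3H CBE replicate 1. The FVB change, 0.76 ± 0.19, was the largest of the 4 strains and was called without that array (0.76 ± 0.12, adjusted p = 0.0013), with 0.12 in C57, 0.09 in SV129 and 0.59 in C3H, or 0.24 without the high array. The test of a strain difference for Man2b1 gave an unadjusted p of 0.045 and an adjusted p of 0.75.

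**Figure D1:**
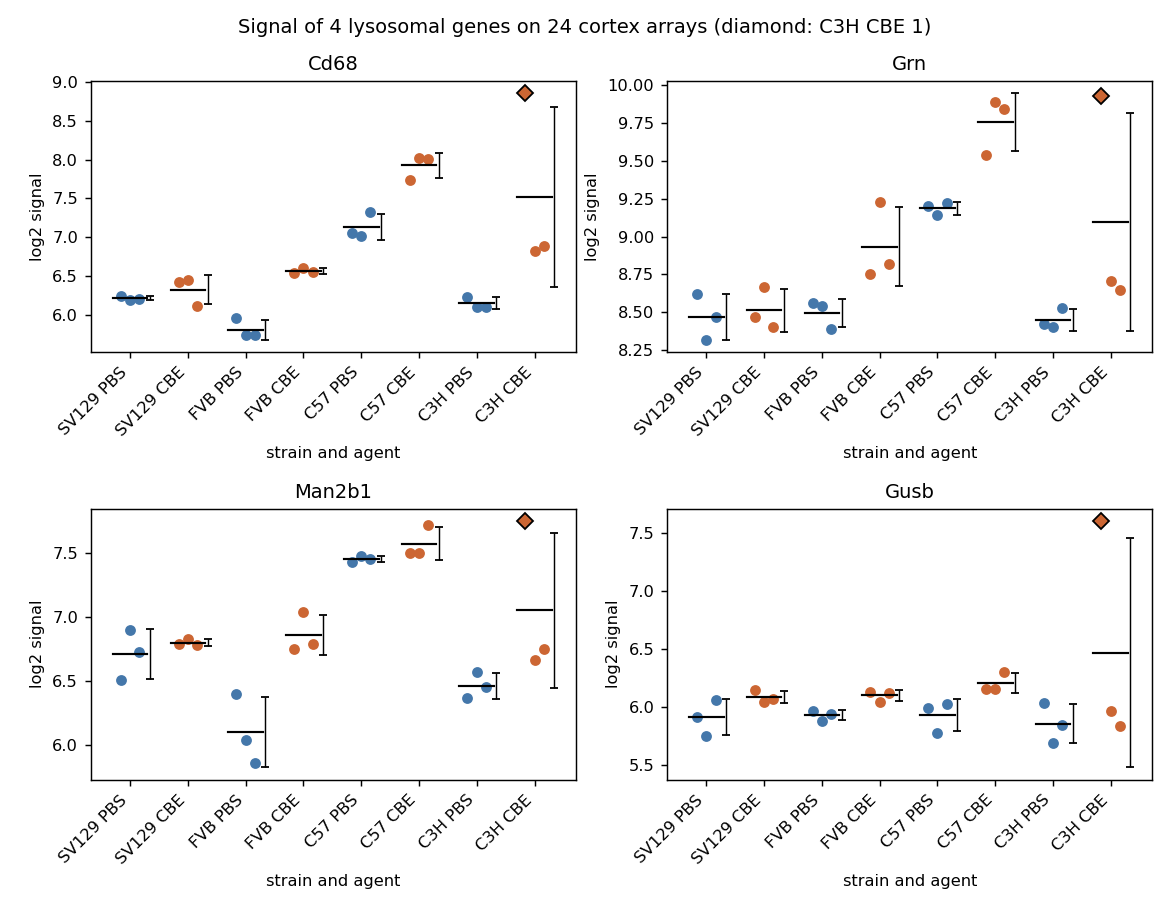
Log2 signal (vertical axis) of Cd68, Grn, Man2b1 and Gusb on each of the 24 arrays, by strain and agent (horizontal axis, PBS blue, CBE orange); black lines are group means and bars are 1 SD of 3 arrays, and the diamond is C3H CBE replicate 1. Cd68, Grn and Man2b1 lie higher under CBE in FVB, C57 and C3H, by only 0.12 in C57 for Man2b1. For Gusb the diamond at 7.60 lies far above every other array.

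Sequences upstream of the transcription start are shown for Cd68, Grn and Man2b1, the members with the largest mean changes. In C57 the changes of these genes were 0.78, 0.57 and 0.12. The sequences are taken from RefSeq on the mouse build GRCm38.p6. In it 32 of the 36 genes had a window of 300 bases around the start, with 37 windows in all. Capitals mark GAGGAA or its reverse complement TTCCTC, the core recognised by PU.1, the transcription factor of the macrophage lineage; this motif was searched after the values had been seen. Each stretch runs 5′ to 3′ and ends at the last base before the start.
Cd68 promoter, chr11:69666171-69666420, minus strand: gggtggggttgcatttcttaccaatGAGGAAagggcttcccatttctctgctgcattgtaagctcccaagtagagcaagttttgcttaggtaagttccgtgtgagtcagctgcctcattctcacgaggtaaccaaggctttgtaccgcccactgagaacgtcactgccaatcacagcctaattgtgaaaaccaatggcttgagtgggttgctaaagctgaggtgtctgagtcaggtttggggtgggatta
Grn promoter, chr11:102430257-102430506, plus strand: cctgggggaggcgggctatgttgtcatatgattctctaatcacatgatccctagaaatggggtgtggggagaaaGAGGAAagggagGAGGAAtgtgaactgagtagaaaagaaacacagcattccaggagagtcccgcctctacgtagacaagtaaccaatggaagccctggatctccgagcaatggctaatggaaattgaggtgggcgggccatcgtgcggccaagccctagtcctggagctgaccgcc
Man2b1 promoter, chr8:85083019-85083268, plus strand: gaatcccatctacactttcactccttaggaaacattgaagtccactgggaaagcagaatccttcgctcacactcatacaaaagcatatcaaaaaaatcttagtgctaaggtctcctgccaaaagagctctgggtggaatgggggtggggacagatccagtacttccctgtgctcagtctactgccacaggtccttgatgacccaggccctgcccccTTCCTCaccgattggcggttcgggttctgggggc
The motif stood once in the Cd68 stretch, in 2 copies in that of Grn and once, on the opposite strand, in that of Man2b1. It was found in 15 of the 32 genes with a window, or 46.9%, and in 31.3% of the 27025 genes of the table, so its presence is common and is given as a description only.

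The sphingolipid hydrolases and activators act on the lipids nearest to the enzyme that CBE blocks. Of the 9 measured members 0 were called in the mean of the 4 strains. Over all genes 0.609% were called higher and 0.117% lower, so a list this short would mostly hold no call. Psap (probe set 17233629), whose product is cut into the saposins that activate these enzymes, including glucocerebrosidase, read 11.74, 11.58 and 11.72 in SV129 PBS, 11.75, 11.77 and 11.68 in SV129 CBE, 11.62, 11.74 and 11.68 in FVB PBS and 11.66, 11.79 and 11.71 in FVB CBE. Its C57 values were 11.94, 11.93 and 11.89 under PBS and 11.91, 11.93 and 11.86 under CBE, and its C3H values 11.74, 11.70 and 11.80 against 11.88, 11.85 and 11.73. PBS and CBE overlapped in all 4 strains, and the Psap change was 0.04 ± 0.03 (limma adjusted p = 0.77; 95% interval -0.03 to 0.10). Gm2a (probe set 17249801), the activator that presents GM2 ganglioside to hexosaminidase, was similarly flat. Its signals were 10.07, 10.04 and 9.91 in SV129 PBS, 10.12, 10.06 and 10.15 in SV129 CBE, 10.09, 10.12 and 9.96 in FVB PBS and 10.06, 10.17 and 10.00 in FVB CBE. In C57 they were 10.09, 10.11 and 9.94 against 10.04, 10.02 and 10.06, and in C3H 9.86, 9.96 and 9.83 against 9.98, 10.04 and 9.91. The Gm2a change was 0.05 ± 0.03 (adjusted p = 0.63), with overlap in every strain.

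Galc (probe set 17283096), the galactosylceramidase deficient in Krabbe disease and needed for turnover of myelin lipids, was the member with the lowest mean change. Its signals were 6.44, 6.62 and 6.53 in SV129 PBS, 6.35, 6.39 and 6.28 in SV129 CBE, 6.53, 6.64 and 6.14 in FVB PBS and 5.90, 6.07 and 6.27 in FVB CBE. In C57 they were 6.31, 6.03 and 6.31 against 6.09, 6.19 and 6.11, and in C3H 6.38, 6.31 and 6.84 against 6.31, 6.51 and 6.26. Every one of the 12 CBE arrays lay below the PBS mean of its strain, although only in SV129 did the groups not overlap. The change was -0.19 ± 0.07 and did not pass the threshold (limma adjusted p = 0.25 with all arrays, 0.32 without C3H CBE replicate 1); it was -0.19, -0.35, -0.08 and -0.15 in SV129, FVB, C57 and C3H. Over all genes, 9.97% had a change below 0 in all 4 strains. That is a looser criterion than 12 of 12 CBE arrays below the PBS mean, for which no share of all genes was counted. Oligodendrocyte markers, of which 7 were measured, had a median change of -0.09 with 0 called, and their part in the Galc values was not tested.

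Gla (probe set 17544517), the alpha-galactosidase deficient in Fabry disease, came next with -0.05 ± 0.05. Its signals were 7.04, 7.15 and 6.80 against 6.92, 6.71 and 6.63 in SV129, and 6.88, 6.74 and 6.82 against 6.84, 6.63 and 6.78 in FVB. In C57 they were 6.92, 6.95 and 6.79 against 6.78, 6.77 and 6.90, and in C3H 6.99, 7.02 and 7.05 against 7.45, 7.07 and 7.05. The PBS value is given first in each pair, and Gla separated by agent in C3H alone, where the CBE arrays were higher, the closest pair being equal to the 2 decimals given. Its C3H change was 0.17 with all arrays and 0.04 without C3H CBE replicate 1. Hexa, the alpha subunit of hexosaminidase, had a mean change of 0.17 ± 0.08 with all arrays and 0.10 ± 0.06 without C3H CBE replicate 1, where it read 9.21 against 8.01 to 8.57 on the other arrays. Arsa, Smpd1, Asah1 and Neu1, which remove sulfate from sulfatide, phosphocholine from sphingomyelin, the fatty acid from ceramide and sialic acid, had changes of -0.02, 0.01, 0.05 and 0.02.

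The glycosaminoglycan hydrolases, which cut heparan, dermatan, keratan and chondroitin sulfates and underlie the mucopolysaccharidoses, numbered 7. Of these 0 were called, where 0.609% of all genes were called higher and 0.117% lower. The changes of the 7 were all above 0, from 0.01 (Ids) to 0.31 (Gusb), with a median of 0.08 beside -0.01 for all genes. Gusb (probe set 17453160), beta-glucuronidase, read 5.91, 5.75 and 6.06 in SV129 PBS, 6.14, 6.04 and 6.07 in SV129 CBE, 5.96, 5.88 and 5.94 in FVB PBS and 6.13, 6.04 and 6.12 in FVB CBE. In C57 it read 5.99, 5.77 and 6.02 against 6.15, 6.15 and 6.30, and in C3H 6.03, 5.69 and 5.84 against 7.60, 5.96 and 5.83. It separated by agent in FVB and C57, and the value of 7.60 on C3H CBE replicate 1 was over 1 log2 unit above every other array. The Gusb change of 0.31 ± 0.13 (limma adjusted p = 0.39) was 0.17 ± 0.05 (0.15) without that array. Naglu, an alpha-N-acetylglucosaminidase of heparan sulfate breakdown, had a change of 0.16 ± 0.09, with -0.13 in FVB and 0.57 in C3H; without C3H CBE replicate 1 the Naglu mean was 0.11 and its C3H change 0.36. Idua, alpha-L-iduronidase, stood at -0.36 in SV129 and between 0.20 and 0.24 in the other strains, where C3H fell to 0.13 without C3H CBE replicate 1; the unadjusted p of a strain difference was 0.033 for Idua and 0.038 for Naglu, both with an adjusted p of 0.74. Arsb, Sgsh and Galns had changes of 0.05, 0.05 and 0.09.

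Among the glycoprotein and glycogen hydrolases other than Man2b1, Fuca1, the alpha-fucosidase, had a change of 0.12 ± 0.04 (limma adjusted p = 0.28), and 11 of its 12 CBE arrays lay above their PBS mean; the Fuca1 change was 0.09 without C3H CBE replicate 1. Manba, the beta-mannosidase that acts after Man2b1 on the same glycans, had a change of -0.04 ± 0.07 and lay lower without overlap in FVB. Aga, which splits the bond between asparagine and the glycan, had a change of 0.00 ± 0.06, and Gaa, the acid alpha-glucosidase of glycogen breakdown, -0.03 ± 0.05, with C57 CBE below C57 PBS at -0.19. Lipa, Tpp1 and Ppt1, an acid lipase, a tripeptidyl peptidase and a palmitoyl thioesterase, changed by 0.01, 0.06 and 0.03, and 0 of these 3 were called. Over all genes 0.609% were called higher and 0.117% lower in this contrast.

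The membrane proteins and cholesterol carriers numbered 10, of which 1, Cd68, was called higher, beside 0.609% of all genes. Lamp1 (probe set 17499279), a main glycoprotein of the lysosomal membrane, read 10.91, 10.63 and 10.72 against 10.87, 10.86 and 10.80 in SV129, and 10.90, 10.94 and 10.89 against 10.81, 10.96 and 10.84 in FVB, PBS first. In C57 it read 10.73, 10.73 and 10.58 against 10.68, 10.77 and 10.69, and in C3H 10.82, 10.78 and 10.67 against 10.90, 10.72 and 10.81. The agents overlapped throughout, with a Lamp1 change of 0.03 ± 0.04 (limma adjusted p = 0.83; 95% interval -0.04 to 0.11). Lamp2 had a change of 0.06 ± 0.06 (0.02 without C3H CBE replicate 1), the cholesterol exporter pair Npc1 and Npc2 of -0.03 ± 0.04 and 0.14 ± 0.07, and the calcium channel gene Mcoln1 of 0.02 ± 0.04. For Npc2, 11 of 12 CBE arrays lay above their PBS mean.

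Scarb2 (probe set 17449749) encodes LIMP-2, the receptor that carries glucocerebrosidase to the lysosome. It read 9.80, 10.00 and 9.86 against 9.99, 9.83 and 9.97 in SV129, and 9.66, 9.93 and 9.67 against 9.75, 9.66 and 9.76 in FVB. In C57 it read 9.46, 9.47 and 9.39 against 9.71, 9.59 and 9.46, and in C3H 9.68, 9.69 and 9.74 against 9.72, 9.75 and 9.62. The agents overlapped in each strain, and the Scarb2 change was 0.04 ± 0.04 (limma adjusted p = 0.81; 95% interval -0.05 to 0.12). Cd63, a tetraspanin of late endosomes and lysosomes, changed by 0.20 ± 0.10 with all arrays and 0.10 ± 0.07 without C3H CBE replicate 1, where it read 9.03 against 7.54 to 8.18 elsewhere. Cln3, a membrane protein mutated in juvenile Batten disease, and Ctns, the cystine exporter, changed by -0.03 and -0.05.

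Tfeb (probe set 17338328) was the dimmest member, with a mean log2 signal of 3.48 that lay below that of the median gene, 4.49, so a change of its transcript could be hidden. It read 3.52, 3.45 and 3.56 against 3.33, 3.61 and 3.41 in SV129, and 3.41, 3.51 and 3.65 against 3.47, 3.46 and 3.38 in FVB. In C57 it read 3.44, 3.68 and 3.45 against 3.35, 3.56 and 3.51, and in C3H 3.52, 3.35 and 3.32 against 3.52, 3.56 and 3.42. The agents overlapped in every strain, with a Tfeb change of -0.02 ± 0.04 (limma adjusted p = 0.92). TFEB is controlled largely by its location in the cell, which transcript levels do not report.

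**Figure D2:**
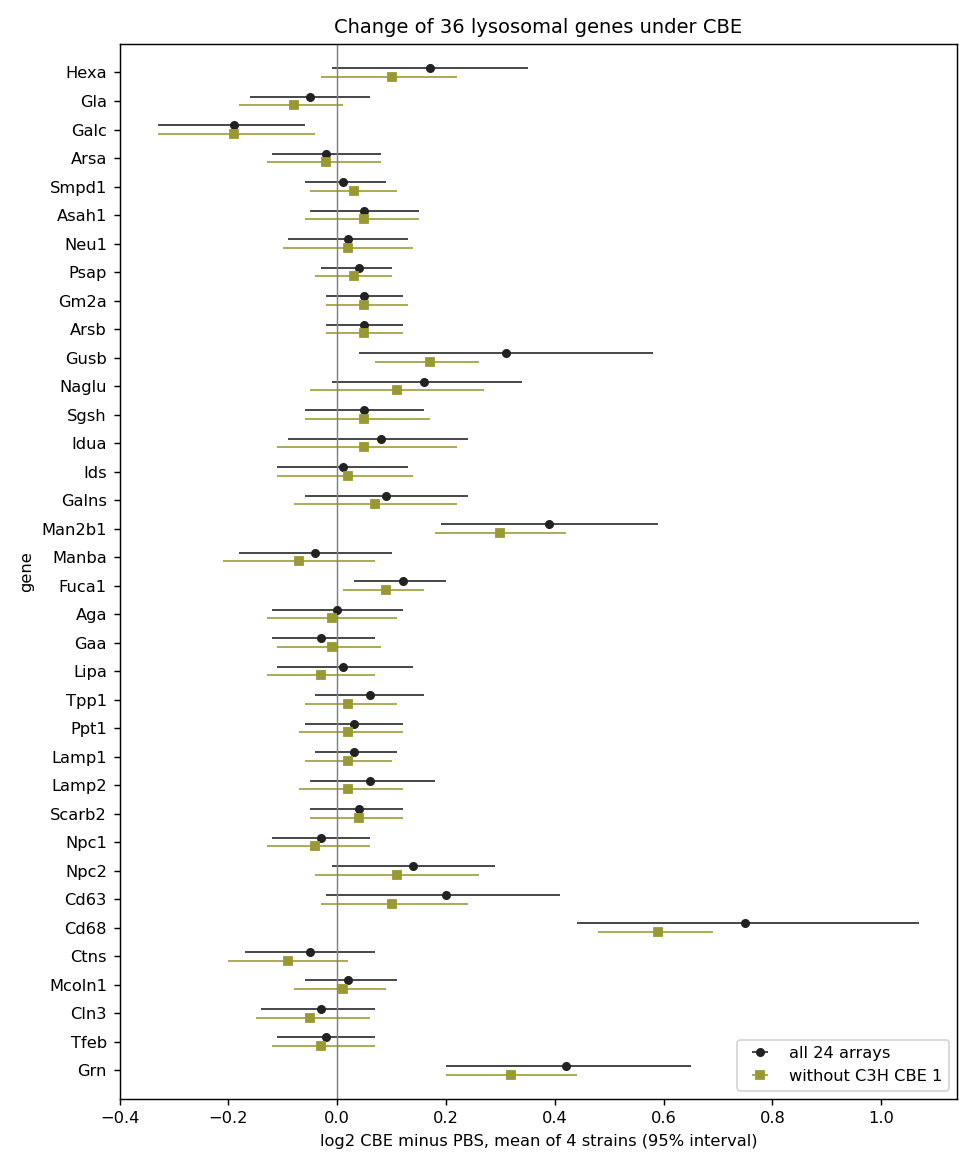
Log2 change under CBE averaged over the 4 strains (horizontal axis) for the 36 genes (vertical axis, grouped by role), with 95% intervals from limma, using all 24 arrays (circles) and without C3H CBE replicate 1 (squares). Cd68 at 0.75, Grn at 0.42 and Man2b1 at 0.39 lie to the right of the other genes, and Galc at -0.19 is lowest.

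For the 33 members other than Cd68, Grn and Man2b1, the 95% interval of the mean change lay between -0.3 and 0.3 on the log2 scale for 28 with all arrays, the exceptions being Hexa, Galc, Gusb, Naglu and Cd63. Without C3H CBE replicate 1 it did so for 32, the exception being Galc. The bound of 0.3 was arbitrary, and the share of all genes within it was not counted. Over all genes the SE of this change had a median of 0.05, so such intervals are not particular to the members. At an unadjusted p below 0.05, 6 of the 36 members differed in the mean of 4 strains, where 10.7% of all genes did.

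As a set, the 36 genes had a mean log2 change of 0.08 and a median of 0.04 in the mean of the 4 strains, with 27 above 0 and 9 below, or 75.0% above 0 where 44.4% of all genes were. By strain the mean was 0.20 in C3H, 0.08 in C57, 0.05 in FVB and -0.01 in SV129, with medians of 0.10, 0.04, 0.01 and 0.00; the median over all genes was between -0.01 and 0.00 in each strain. The counts above 0 in SV129, FVB, C57 and C3H were 18, 19, 22 and 31 of 36, or 50%, 52.8%, 61.1% and 86.1%, beside 49.3%, 45.4%, 45.1% and 47.4% of all genes. The C3H mean fell to 0.08 and its median to 0.05 without C3H CBE replicate 1, with 27 of 36 above 0 beside 48.4% of all genes, and the mean of the 4 strains fell to 0.05. Without Cd68 the mean change was 0.06 over the 4 strains and 0.16 in C3H. These means are descriptions and carry no test.

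The mean signal of the 36 genes ranged from 7.58 to 7.60 in SV129 PBS and 7.52 to 7.65 in SV129 CBE, from 7.55 to 7.61 in FVB PBS and 7.62 to 7.66 in FVB CBE, and from 7.72 to 7.76 in C57 PBS and 7.81 to 7.83 in C57 CBE. In C3H it ranged from 7.56 to 7.57 under PBS and was 8.01, 7.69 and 7.60 under CBE. The agents thus separated in FVB, C57 and C3H and overlapped in SV129. The mean signal of the microglia markers moved with it. All 12 measured had a mean change of 0 or above, with a median of 0.16. Of these 1 was called higher, beside 0.609% of all genes (Csf1r, the receptor microglia need to survive, 0.29 ± 0.06, limma adjusted p = 0.033). The changes were uneven, from 0.00 (P2ry13 and Gpr34) to 0.42 (Itgam), genes named after their values were seen. Without C3H CBE replicate 1 the median of the 12 markers was 0.10, with 10 of 12 above 0, and Csf1r was still called (0.25, adjusted p = 0.035). Their mean signal ranged from 6.22 to 6.57 in SV129 PBS and 6.29 to 6.45 in SV129 CBE, from 6.42 to 6.57 and 6.65 to 6.74 in FVB, from 6.55 to 6.76 and 6.79 to 6.90 in C57, and from 6.52 to 6.64 and 6.65 to 7.15 in C3H, where 7.15 was C3H CBE replicate 1. None of the 12 microglia markers lay below the median gene. The mean signal of the 8 astrocyte markers separated in the same strains. With PBS first, it was 9.29 to 9.46 and 9.53 to 9.58 in FVB, and 9.37 to 9.43 and 9.54 to 9.68 in C57. In C3H it was 9.29 to 9.45 and 9.49 to 9.77, and in SV129 it overlapped (9.10 to 9.45 and 9.38 to 9.50). Among these 8, Gfap had a mean change of 1.15, and the next largest was 0.24. Markers of blood-derived and border macrophages lay between 4.16 and 4.48 on every array, with 6 of 8 below the median gene and 0 called. Between the SV129 groups the mean signal of the 7 thalamus markers differed as well: it was 6.63 to 6.72 under PBS and 6.34 to 6.46 under CBE, against 6.35 to 6.60 on the arrays of the other strains. Of these markers 6 were lower in SV129 CBE and 1 was called, Ntng1 (-0.82, limma adjusted p = 0.010). Slc17a6 changed by -0.85 (limma adjusted p = 0.066), and the rest by between -0.14 and 0.27. Ntng1 and Slc17a6 were named after their values were seen. The part of the thalamus marker difference in the SV129 values of the members was not tested. Whether the microglia or astrocyte markers account for the changes of Cd68, Grn and Man2b1 was not tested.

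**Figure D3:**
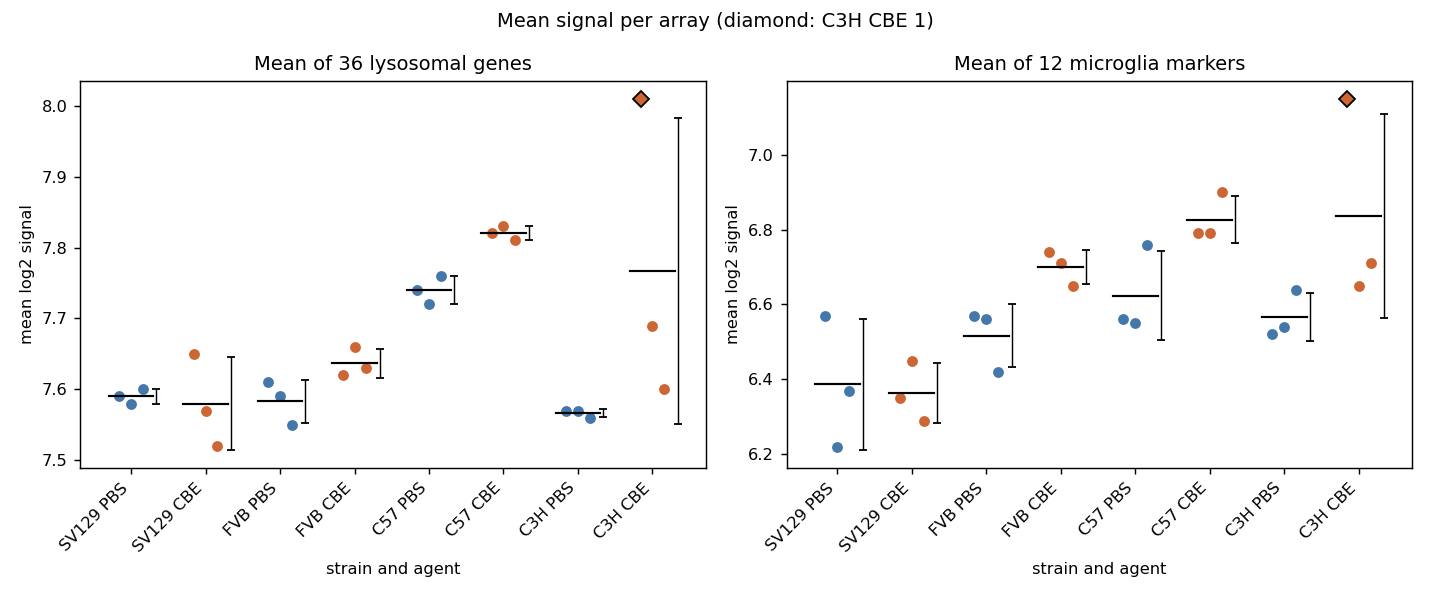
Mean log2 signal per array (vertical axes) of the 36 lysosomal genes (left) and of the 12 microglia markers (right), by strain and agent (horizontal axis, PBS blue, CBE orange); lines are group means, bars 1 SD of 3 arrays, and the diamond is C3H CBE replicate 1. In both panels FVB, C57 and C3H lie higher under CBE, SV129 does not, and the diamond is the highest array, at 8.01 and 7.15.

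Within single strains, 0 of 36 members were called in limma at the adjusted threshold in SV129, FVB, C57 or C3H, where 0.113%, 0.135%, 0.325% and 0.0361% of all genes were called in either direction. At an unadjusted p below 0.05 the counts were 2, 4, 3 and 8 members, against 13%, 6.27%, 5.78% and 5.02% of all genes. Without C3H CBE replicate 1, 2 members were called higher in FVB (Man2b1 and Cd68; background 0.374%), 2 in C57 (Cd68 and Grn; 0.600%), 1 in C3H (Cd68; 0.0316%) and 0 in SV129. The 3 CBE arrays lay above the 3 PBS arrays for 0 members in SV129, 5 in FVB (Gusb, Sgsh, Man2b1, Cd68, Grn), 7 in C57 (Asah1, Gusb, Idua, Man2b1, Lamp2, Cd68, Grn) and 6 in C3H (Gla, Arsb, Naglu, Man2b1, Cd68, Grn). Over all genes the shares were 6.52%, 5.09%, 5.82% and 4.50%. They lay below for 1 in SV129 (Galc), 1 in FVB (Manba), 2 in C57 (Neu1 and Gaa) and 0 in C3H, beside 8.99%, 5.96%, 7.22% and 5.17% of all genes. Cd68, Grn and Man2b1 were the genes that separated upward in FVB, C57 and C3H alike.

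No member passed the limma test for a difference of the CBE change between strains, with all arrays (background 0.00902%) or without C3H CBE replicate 1 (0.113%). At an unadjusted p below 0.05, 3 members did (Naglu, Idua and Man2b1), where 6.57% of all genes did. A change called in one strain and not in another is therefore not shown to differ between them.

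**Figure D4:**
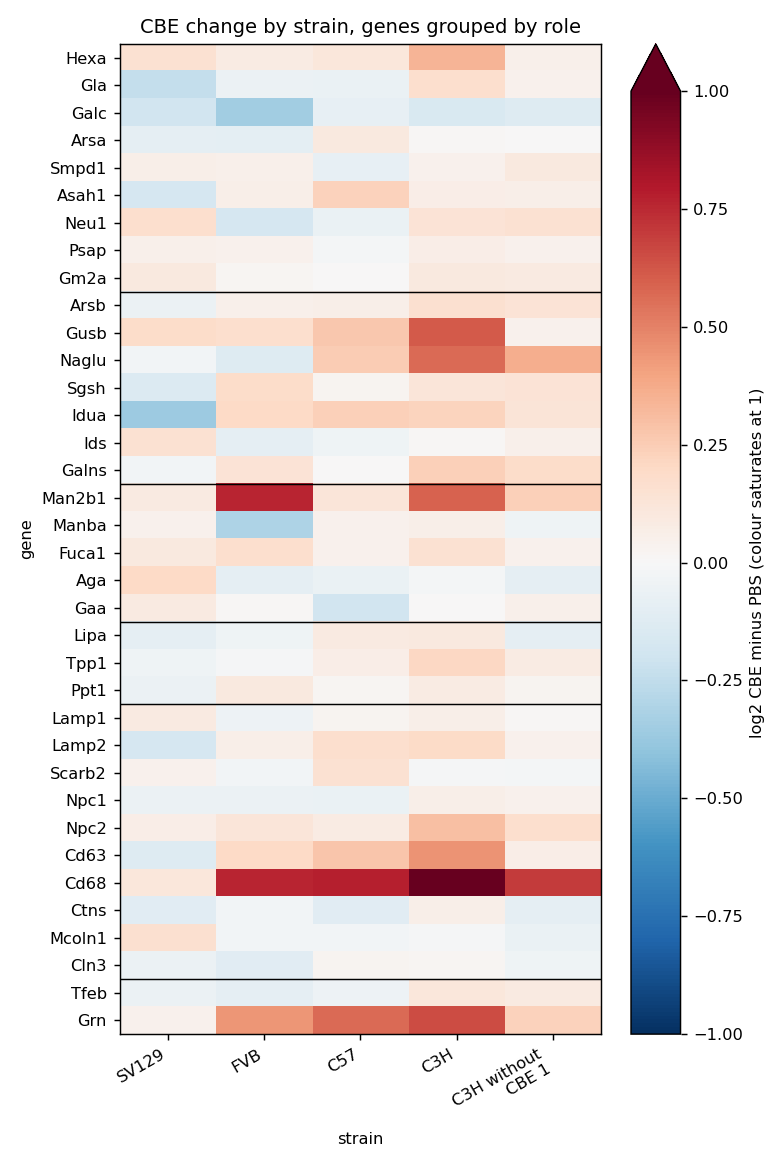
Log2 change under CBE (colour, red higher and blue lower, saturating at 1) of the 36 genes (rows, with lines between roles) in SV129, FVB, C57 and C3H and in C3H without CBE replicate 1 (columns). Cd68 is deep red in FVB (0.76), C57 (0.78) and C3H (1.36) and pale in SV129 (0.11), and most C3H colours fade when replicate 1 is left out.

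The levels of these genes also differed between strains under PBS, with more members called than in any CBE contrast. A limma test over the 4 PBS groups called 14 of the 36 members, or 38.9%, beside 13% of all genes. That share of all genes includes dim genes, whereas 35 of the 36 members lay above the median gene. They were Psap, Idua, Man2b1, Aga, Gaa, Lipa, Tpp1, Scarb2, Npc1, Cd68, Ctns, Mcoln1, Cln3 and Grn. With the mean of the other 3 strains as the comparison, C57 was higher for 11 members, or 30.6%, and lower for 1, where 5.18% of all genes were higher and 4.63% lower; SV129 was higher for 1 and lower for 2 (2.98% and 1.16% of all genes), FVB for 1 and 1 (1.21% and 2.69%), and C3H for 1 and 2 (1.26% and 1.23%). Leaving out 1 C57 PBS array lowered the 14 calls to 7, 9 or 8 (replicates 1, 2 and 3), while leaving out any other array gave between 11 and 14. Man2b1, Gaa, Aga, Lipa and Scarb2 were called whichever array was left out. Whether sequence differences between the strains lie under the probes was not examined here.

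The PBS signals of Man2b1 given above put C57 at 7.43 to 7.48, SV129 at 6.51 to 6.90, C3H at 6.37 to 6.57 and FVB at 5.86 to 6.40. C57 lay 1.03 ± 0.15 above the mean of the others (limma adjusted p = 0.00013; 2.04-fold) and FVB stood at -0.78 ± 0.15 (0.0053), so the order was C57, then SV129 and C3H, which overlapped, then FVB, whose highest array overlapped C3H. Cd68 under PBS was 1.08 ± 0.25 higher in C57 (adjusted p = 0.0072; 2.11-fold) and Grn 0.71 ± 0.17 higher (0.011; 1.64-fold), and in both genes all 3 C57 PBS arrays lay above the other 9. The test over the PBS groups gave an adjusted p of 0.023 for Cd68 and 0.045 for Grn. Leaving out a single C57 PBS array ended both calls, with an adjusted p of up to 0.11 for Cd68 and up to 0.15 for Grn, and the Grn call held when 6 of the 24 arrays were each left out and was lost for the other 18.

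Gaa (probe set 17258994) read 8.91, 8.89 and 8.89 in C57 PBS, 8.56, 8.70 and 8.71 in SV129, 8.22, 8.61 and 8.33 in FVB and 8.15, 8.33 and 8.16 in C3H. C57 was thus above every other PBS array, by 0.48 ± 0.07 (limma adjusted p = 0.00017), and C3H was low (-0.43 ± 0.07, 0.0015). Under CBE the Gaa order was less clear, with 8.71, 8.78 and 8.64 in C57, 8.65, 8.86 and 8.72 in SV129, 8.31, 8.49 and 8.38 in FVB and 8.11, 8.35 and 8.17 in C3H, where C57 overlapped SV129. Lipa (probe set 17364114) was high in FVB PBS, with 8.85, 8.49 and 8.80 against 8.15, 8.21 and 8.09 in SV129, 8.12, 8.01 and 8.18 in C57 and 8.09, 8.08 and 8.12 in C3H. The FVB difference for Lipa was 0.60 ± 0.10 (adjusted p = 0.00095). The FVB CBE arrays, at 8.58, 8.64 and 8.79, were also above the CBE arrays of SV129 (8.15, 8.00 and 8.04), C57 (8.22, 8.15 and 8.20) and C3H (8.57, 7.85 and 8.18).

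Tpp1 (probe set 17494596) read 9.55, 9.44 and 9.43 in C57 PBS and 8.96 to 9.18 on the other 9 PBS arrays, a difference of 0.40 ± 0.08 (limma adjusted p = 0.0022). Ctns (probe set 17265733) read 7.53, 7.73 and 7.59 against 6.97 to 7.37 (0.42 ± 0.10, 0.0077), and Cln3 (probe set 17496310) 5.31, 5.36 and 5.53 against 4.82 to 5.19 (0.36 ± 0.08, 0.0063). Idua (probe set 17440293) read 6.76, 6.58 and 6.81 against 5.92 to 6.36 (0.52 ± 0.13, 0.010). None of these 4 genes had a C57 PBS array within the range of the other strains. Psap was higher in C57 by 0.22 ± 0.05 (0.0087), Smpd1 by 0.22 ± 0.06 (0.025) and Mcoln1 (probe set 17498607; C57 PBS 8.90, 8.68 and 8.83) by 0.22 ± 0.07 (0.037), which are changes of 1.16-fold. Smpd1 (probe set 17481388) read 9.78, 9.76 and 9.73 in C57 PBS, above every other PBS array, with 9.51, 9.46 and 9.62 in SV129 PBS, 9.59, 9.52 and 9.39 in FVB PBS and 9.63, 9.58 and 9.54 in C3H PBS, and under CBE 9.69, 9.56 and 9.52 in SV129, 9.68, 9.76 and 9.58 in C57, 9.50, 9.75 and 9.63 in C3H and 9.54, 9.55 and 9.54 in FVB, where C57 overlapped SV129 and C3H. It was not called in the test over all PBS groups (adjusted p = 0.073).

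The other PBS arrays of these genes, and their CBE arrays, were as follows. Tpp1, a peptidase that is deficient in late infantile Batten disease, read 9.03, 9.10 and 9.16 in SV129 PBS, 9.18, 9.08 and 9.04 in FVB PBS and 8.99, 9.15 and 8.96 in C3H PBS. Its CBE signals were 9.09, 9.06 and 9.02 in SV129, 9.50, 9.63 and 9.48 in C57, 9.50, 9.25 and 8.99 in C3H and 8.94, 9.13 and 9.18 in FVB. C57 CBE lay above SV129, FVB and C3H CBE with the exception of C3H CBE replicate 1. Ctns read 7.30, 7.30 and 6.97 in SV129 PBS, 7.37, 7.01 and 7.12 in FVB PBS and 7.13, 7.35 and 7.27 in C3H PBS, and under CBE 7.13, 7.09 and 7.0 in SV129, 7.60, 7.47 and 7.44 in C57, 7.61, 7.24 and 7.08 in C3H and 7.24, 7.12 and 7.03 in FVB. The C57 CBE arrays of Ctns again exceeded all but C3H CBE replicate 1.

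Cln3 read 4.90, 4.82 and 5.13 in SV129 PBS, 4.84, 5.10 and 5.06 in FVB PBS and 5.18, 5.19 and 5.12 in C3H PBS, and under CBE 5.08, 4.87 and 4.71 in SV129, 5.53, 5.43 and 5.34 in C57, 5.29, 5.20 and 5.05 in C3H and 4.84, 4.97 and 4.86 in FVB. Idua read 5.92, 6.32 and 6.17 in SV129 PBS, 6.11, 6.30 and 6.05 in FVB PBS and 6.23, 6.36 and 6.28 in C3H PBS, and under CBE 6.04, 5.49 and 5.79 in SV129, 7.22, 6.82 and 6.85 in C57, 6.69, 6.75 and 6.09 in C3H and 6.45, 6.39 and 6.20 in FVB. In both genes the 3 C57 CBE arrays were above every other CBE array, C3H CBE replicate 1 included. Mcoln1 read 8.48, 8.36 and 8.54 in SV129 PBS, 8.64, 8.50 and 8.58 in FVB PBS and 8.74, 8.75 and 8.69 in C3H PBS, and under CBE 8.71, 8.64 and 8.52 in SV129, 8.81, 8.80 and 8.71 in C57, 8.84, 8.77 and 8.54 in C3H and 8.64, 8.48 and 8.51 in FVB. Its C57 arrays overlapped those of C3H under both agents.

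Scarb2 was the member lower in C57 PBS, by -0.34 ± 0.07 (limma adjusted p = 0.0015), and it was high in SV129 (0.26 ± 0.07, 0.028); the values above show C57 PBS below every other PBS array. Aga (probe set 17501148) was low in SV129 PBS, with 4.67, 5.28 and 4.87 (-0.33 ± 0.09, 0.048), and high in C3H, with 5.42, 5.64 and 5.34 (0.37 ± 0.09, 0.039). FVB PBS gave Aga values of 5.0, 5.10 and 5.0 and C57 PBS of 5.34, 5.29 and 5.33. Under CBE Aga read 5.18, 5.26 and 5.0 in SV129, 5.16, 5.25 and 5.32 in C57, 5.58, 5.31 and 5.45 in C3H and 5.02, 4.95 and 4.86 in FVB, and C3H was above all other strains' arrays except where 5.31 met C57. Npc1 (probe set 17352731) was low in C3H PBS, with 8.41, 8.47 and 8.14 against 8.68, 8.65 and 8.75 in SV129, 8.80, 8.64 and 8.62 in FVB and 8.53, 8.53 and 8.58 in C57 (-0.30 ± 0.07, 0.023). Under CBE it read 8.67, 8.61 and 8.63 in SV129, 8.46, 8.65 and 8.32 in C57, 8.43, 8.40 and 8.37 in C3H and 8.50, 8.68 and 8.69 in FVB, and C57 overlapped C3H there. That Npc1 call depended on the probe set: with the mean of its 2 probe sets the test over the PBS groups gave an adjusted p of 1.0.

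**Figure D5:**
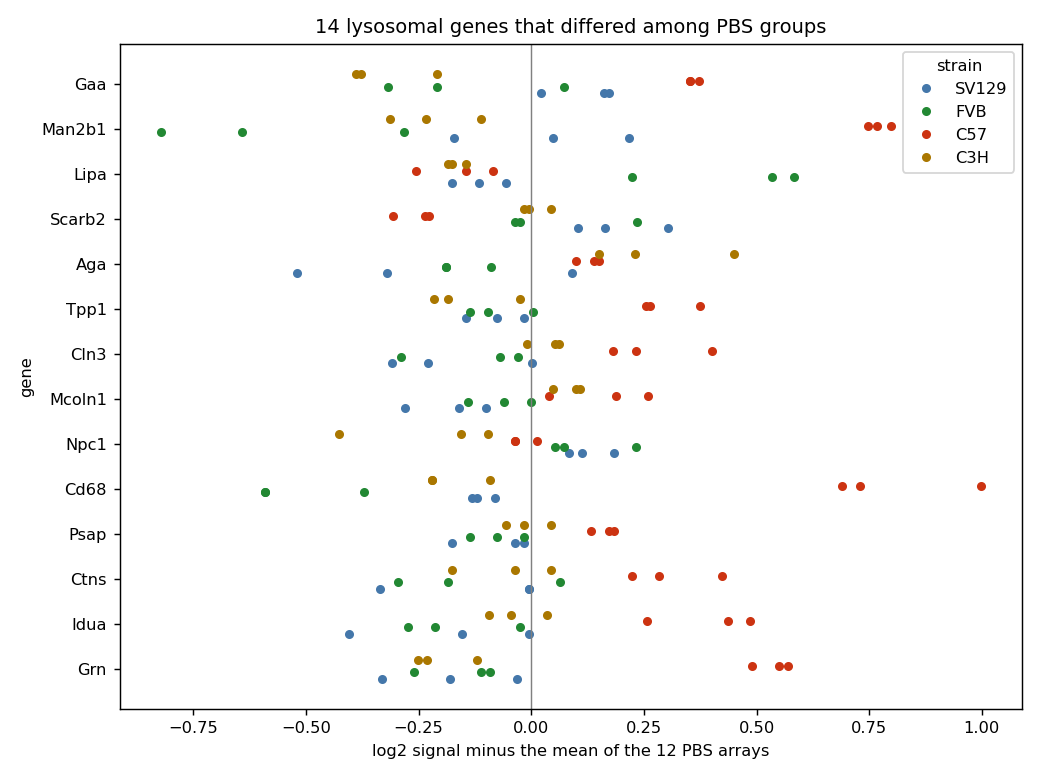
Log2 signal minus the mean of the 12 PBS arrays (horizontal axis) for the 14 genes called among the PBS groups (vertical axis); each point is 1 PBS array, coloured by strain, and genes are ordered by adjusted p. The C57 points lie to the right of all others for Gaa, Man2b1, Tpp1, Cln3, Cd68, Psap, Ctns, Idua and Grn and to the left for Scarb2, and FVB lies to the right for Lipa.

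All 3 C57 PBS arrays lay above the other 9 PBS arrays for 10 members, beside 4.0% of all genes. The CBE arrays are separate samples and allow the same comparison: the 3 C57 CBE arrays lay above the other 9 CBE arrays for 2 members (Idua and Cln3; 3.45% of all genes). Without C3H CBE replicate 1 they lay above the other 8 for 10 members (4.51% of all genes), and 8 of these were among the 10 seen under PBS. Among the microglia markers, in C57 PBS against the other strains, 1 of 12 was called higher and 1 lower, with a median difference of 0.01. The 7 oligodendrocyte markers had a median difference of 0.45 with 0 called, and a mean signal of 9.06 to 9.77 in C57 PBS, 8.61 to 9.23 in SV129 PBS, 9.53 to 9.82 in FVB PBS and 8.02 to 8.90 in C3H PBS. Their part in the C57 levels was not tested.

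E-box sequences are shown for members with a dense set of them, since TFEB and its relatives bind such sites. The motif CACGTG, which reads the same on both strands, was found in 8 of the 32 members with a window, or 25%: Gla, Arsa, Naglu, Sgsh, Gaa, Lamp1, Mcoln1 and Cln3. It was found in 8.09% of all 27025 genes with a window. The longer forms TCACGTG or CACGTGA, which contain it, were in the same 8 members and in 4.29% of all genes. Capitals mark CACGTG in the following upstream stretches, read 5′ to 3′.
Lamp1 promoter, chr8:13159061-13159160, plus strand: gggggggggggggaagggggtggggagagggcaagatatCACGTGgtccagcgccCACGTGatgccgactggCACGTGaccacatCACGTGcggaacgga
Cln3 promoter, chr7:126583237-126583406, minus strand: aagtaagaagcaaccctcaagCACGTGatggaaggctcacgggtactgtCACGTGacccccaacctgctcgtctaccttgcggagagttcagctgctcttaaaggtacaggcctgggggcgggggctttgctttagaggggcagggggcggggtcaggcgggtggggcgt
Mcoln1 promoter, chr8:3500419-3500518, plus strand: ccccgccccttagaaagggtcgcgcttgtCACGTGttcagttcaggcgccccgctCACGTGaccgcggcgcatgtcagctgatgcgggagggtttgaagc
The 8 genes with CACGTG had mean CBE changes between -0.05 and 0.16, and none of them was called. Over all genes 0.609% were called higher and 0.117% lower in that contrast. Cd68, Grn and Man2b1 had no CACGTG in their windows, as was so for most genes of the table. Near matches to the motif were not searched. The part of E-box sites in the CBE changes was not tested.

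The rest of the lysosomal system was taken from lists of 98 further genes, of which 93 were measured. In the mean of the 4 strains 4 of them were called higher in limma and 0 lower, beside 0.609% and 0.117% of all genes. At such shares, lists of 12 to 19 genes would mostly hold no call. The proton pump (16 genes measured), delivery of hydrolases (12), other membrane proteins (19) and transcription and mTORC1 control (16) had 0 called in either direction, with median changes of -0.02, -0.03, -0.02 and -0.00. Of 12 cathepsins 3 were called, Ctsc (0.76 ± 0.13), Ctss (0.78 ± 0.12) and Ctsz (0.68 ± 0.15), and of 18 other hydrolases 1, the endolysosomal exonuclease gene Pld4 (0.80 ± 0.16). In SV129 their changes were 0.25 for Ctsc, -0.05 for Ctss, 0.14 for Ctsz and -0.13 for Pld4. Without C3H CBE replicate 1, 6 of the 93 were called higher, beside 0.699% of all genes, and 0 lower. The 6 were these 4 and Ctsd (0.25, limma adjusted p = 0.0075) and Lgmn (0.21, 0.035). Csf1r among the microglia markers and Gfap, the intermediate filament of reactive astrocytes (1.15 ± 0.13, limma adjusted p = 2.8e-05), were the marker genes called in the mean of the 4 strains over the 8 marker lists, with or without that array.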

How the data were processed

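RNA from the cortex was measured on 24 Affymetrix arrays in 8 groups of 3 (4 strains, CBE or PBS), from 100 ng of total RNA per array per the labels' protocols. The authors deposited 1 log2 value per array for each of 41034 probe sets. Partek and RMA (robust multi-array average) are named per the submitters' processing notes; settings and versions: not given in the sources used here. The log base was inferred from the highest value, 14.09. Array medians lay between 4.14 and 4.22, and correlations within groups between 0.989 and 0.993. Arrays carry no counts, so the number of arrays limits the precision: over all genes the SE of a change had a median of 0.10 in single strains and 0.05 in their mean.

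Genes were named by the platform annotation, which can be old: 23521 probe sets had 1 symbol, 1814 several and 15699 none, and those with 1 symbol gave 22180 genes. No genome build of the array was used here, so genes are identified by symbol and probe set. The members and lists were chosen with earlier results of these data known. limma 3.58.1 in R 4.3.3 fitted 1 mean per group over all 24 arrays, with 16 residual degrees of freedom. Contrasts were CBE minus PBS per strain and their mean, an F-test of the interaction of strain and agent, and an F-test between strains under PBS. All p-values are two-sided, with Benjamini-Hochberg adjustment over all 22180 genes at 0.05, and the procedure was tested on simulated data. An exact permutation test of 3 against 3 arrays cannot go below p = 0.1. Values per array were given for members past the threshold in any contrast, for the 3 highest and 3 lowest mean changes, and for Cd68, Scarb2, Psap, Grn, Tfeb, Lamp1 and Gm2a; Gusb was added after its values were seen. Alternatives were array weights, quantile normalization, median centring, another variance prior, an ordinary linear model, the mean of a gene's probe sets and a filter on dim genes. Further ones were the replicate number as a block, leaving out each array, and the mean of 3 strains at a time in the fit to all 24 arrays.

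Same-numbered arrays of a strain did not deviate together: 2 of 12 pairs had a correlation over 0.1, with a range of -0.19 to 0.20, so the numbers were not treated as pairs.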

Additional observations from a re-analysis of the deposited data

How the results depend on the processing

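The mean changes of Cd68, Grn and Man2b1 stayed above 0 under every alternative, with lowest values of 0.55, 0.32 and 0.26. Some small changes of other members switched sign. For example, the Manba change, -0.04, ranged from -0.08 to 0.05, and the Asah1 change, 0.05, from -0.01 to 0.12. The SV129 mean change of the members, -0.01, ranged from -0.06 to 0.02. The count of 1 member called in the mean of 4 strains was 3 with array weights, 3 with quantile normalization and 3 in the mean of the strains other than SV129. It was 0 in the mean of the strains other than C3H, C57 or FVB, and 0 with an ordinary linear model. Leaving out each array gave 1 to 3: it was 3 (Cd68, Grn and Man2b1) without C3H CBE replicate 1, 2 or 3 and 2 without FVB PBS replicate 1. In those settings Cd68 kept its direction, with 0.55 (limma adjusted p = 0.24), 0.74 (0.070) and 0.75 (0.065) on leaving out C3H, C57 or FVB and 0.75 (0.076) in the ordinary model; it was called on leaving out any single array (0.59 to 0.84, adjusted p up to 0.033). The count in C3H was 0 to 1 over the arrays left out, those in C57 and FVB were 0 to 2, and with a strain's own 6 arrays alone the count was 1 in C57 and 1 in FVB (Cd68 in both). The C3H mean change of the members, 0.20, ranged from 0.08 to 0.28 without C3H CBE replicate 1 or 3. The 14 members called among the PBS groups ranged from 7 to 14 over the arrays left out and reached 15 under quantile normalization and under the filter on dim genes. The other 33 members were called under none of the alternatives. None of their 1187 values moved by 1 SD of single arrays within groups. That SD is in general wider than the SE of a mean change, so this limit was loose. Within it the Gusb change ranged from 0.17 to 0.39 and the Naglu change from 0.03 to 0.26. With the replicate number as a block, the counts were 1 in the mean of 4 strains, 0 in each strain and 13 among the PBS groups, and 4 of 12 arrays correlated best with their own number. Cause was not tested for any of these shifts. Signal near the lower end of the scale, as for Tfeb, can hide a change.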
